A study of Aethionema arabicum with 12 samples.

Results

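Nitrate acts on seeds both as a nutrient and as a signal that favours germination. The genes described here are 8 nitrate genes chosen by their Arabidopsis codes from the deposited gene table of imbibed *Aethionema arabicum* seeds. They are the transporters NRT2.7 (AT5G14570) and NRT1.1 (AT1G12110), the nitrate reductases NIA1 (AT1G77760) and NIA2 (AT1G37130), the nitrite reductase NIR1 (AT2G15620), and the regulators NLP6 (AT1G64530), NLP7 (AT4G24020) and NLP8 (AT2G43500). Each code was paired with a single gene model. The 8 codes thus gave 8 of the 24932 gene models in the table, of which 21661 carry an Arabidopsis code. The choice did not use measured values of the members, but it was made with earlier results of these data known. Of the 8 models, 6 had enough counts to be tested among the 15301 tested models, while NRT1.1 and NLP6 did not.

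The seeds were of the Cyprus accession, whose germination light inhibits, and the study followed secondary dormancy induced by light. All groups shared the wild-type genotype, wet filter paper, a temperature of 14 °C and an initial period of white light at 100 µmol m-2 s-1. One group was harvested after 1 d (23 h) of light, one after 7 d, one after 14 d, and one after 7 d of light followed by 7 d of darkness, here called the dark group. Each group had 3 libraries of polyadenylated RNA, made from intact seeds that had not germinated. Nothing in the labels states that the replicates were grown or imbibed separately; p-values therefore cover the spread among replicates, part of which may be technical. Because the RNA came from whole seeds, fewer cells of a type and less RNA per cell cannot be told apart.

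In Arabidopsis, nitrate enters cells and vacuoles through transporters of the NRT1 and NRT2 families, is reduced to nitrite in the cytosol by nitrate reductase, and is then reduced to ammonium in plastids by nitrite reductase. NLP proteins are transcription factors of the RWP-RK type that bind nitrate-responsive elements, activating reductase and transporter genes when nitrate is present. In Arabidopsis seeds, NRT2.7 loads nitrate into the vacuole, and NLP8 is needed for nitrate to promote germination, in part through the abscisic acid hydroxylase gene CYP707A2.

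Library totals were 3387609 to 3996148 counts after 1 d, 1596668 to 2689668 after 7 d, 916523 to 2448092 after 14 d and 1299536 to 1900418 in the dark group, so depth differed with the groups. In 4 libraries, long genes had lower counts relative to short genes than in the others. These were replicates 1 and 3 of 14 d, replicate 3 of 7 d and replicate 2 of the dark group. In them the log2 count relative to the mean of all libraries changed by -0.1379, -0.1232, -0.0808 and -0.0803 for each doubling of gene length (the length slope). The slope was -0.0053 to 0.0801 in the other libraries. Leaving out these 4 libraries leaves replicate 2 as the lone 14 d library. A value for 14 d without the 4 libraries is therefore that of 1 library, assumed to vary like the other groups. The NLP7 and NLP8 models are 4322 and 4758 bp long and NRT2.7 is 1622 bp long. Of 10 seed genes (storage proteins, oleosins and late embryogenesis proteins), 7 were paired with 9 gene models. All 9 had counts in every group. Their summed level was 1230 to 1430 CPM (counts scaled to a common library size) after 1 d, 2280 to 3600 after 7 d, 2520 to 5900 after 14 d and 3380 to 4610 in the dark group. Raw counts of some of them changed little between libraries of unlike depth. EM1 had 528 to 543 counts per library after 1 d and 431 to 550 after 14 d, and PER1 had 455 to 491 and 420 to 475. SESA4 counts did rise, from 51 to 81 after 1 d to 192 to 308 after 14 d. At equal counts a smaller library gives a higher CPM, and the part of this in the sums was not tested. The summed level of 4 root genes was 180 to 189 CPM after 1 d and 45.0 to 90.4 CPM in the other libraries, with no count of SHR after 7 d or 14 d. Of 3 endosperm models, ZOU had no count, so the summed level was that of the 2 models of a single gene, NCED6. It was 21.4 to 23.3 CPM after 1 d against 65.2 to 127 CPM in the other groups. The 4 seed coat models summed to 65.1 to 70.9 CPM after 1 d and to 15.3 to 48.8 CPM in the other groups, with TT10 at a single count in all. The part of these marker changes in the results below was not tested.

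After the first week of light, NRT2.7 and NLP7 were higher than after 1 d and NIR1 was lower. The second week of light brought no call among the members. After a week in the dark, both nitrate reductases and NRT2.7 were lower than in seeds of equal age kept in light. There NIR1, NLP7 and NLP8 did not pass the test. On the per-length scale of the deposited RPKM (reads scaled by gene length and library total), the order after 1 d was NRT2.7 (98.3 ± 6.0, SD, n = 3), NIR1 (52.6 ± 1.21), NIA2 (35.0 ± 1.16), NIA1 (19.4 ± 0.821), NLP8 (14.0 ± 1.27), NLP7 (10.4 ± 0.111) and NLP6 (0.682). In the dark group the RPKM order was NRT2.7 (94.2 ± 5.21), NIR1 (39.6 ± 4.46), NLP7 (20.4 ± 7.2), NIA2 (11.6 ± 1.66), NLP8 (9.36 ± 2.34) and NIA1 (6.37 ± 1.11). Dark libraries of NIA2 (9.81 to 13.1 RPKM) and NLP8 (7.92 to 12.1 RPKM) overlapped, those of NIA1 (5.15 to 7.31 RPKM) lay below both, and NLP7 stood above NLP8, the reverse of 1 d.

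**Figure D1:**
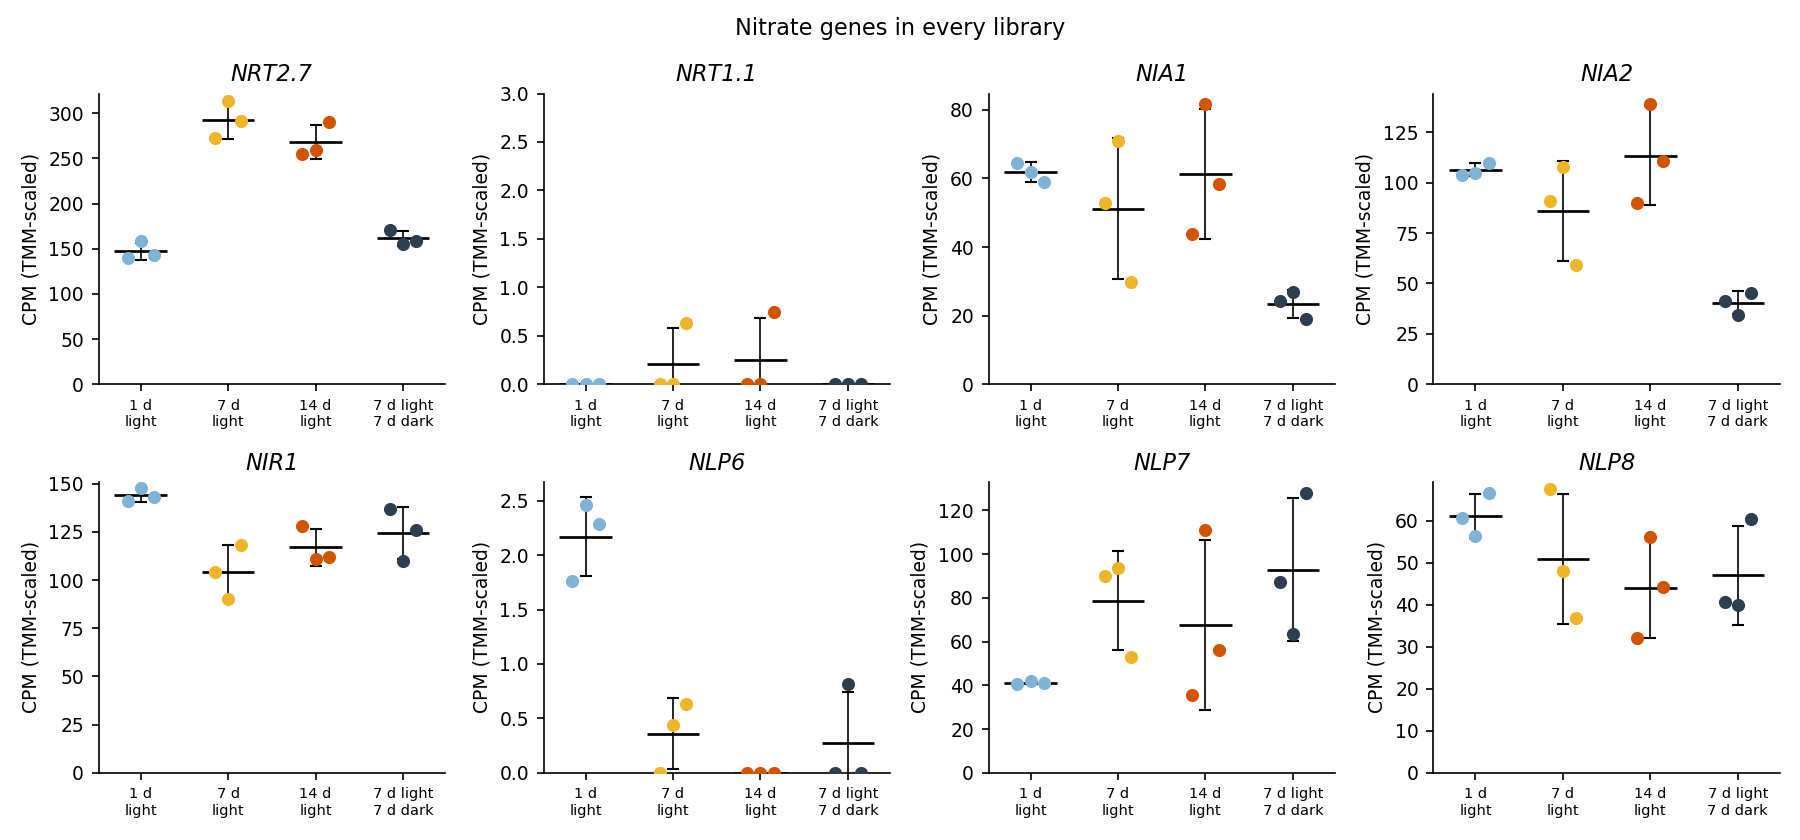
Level of the 8 nitrate genes in each of the 12 libraries, in TMM-scaled CPM on linear axes that start at 0 and differ between panels; points are libraries, horizontal lines are group means and bars are SD over 3 libraries. NRT2.7 stood at 272 to 313 CPM after 7 d against 140 to 158 CPM after 1 d, and the dark libraries of NIA1 and NIA2 lay below all others.

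NRT2.7, the seed vacuolar nitrate transporter of Arabidopsis, was the most abundant member per length in all 4 groups. Its level (model Aa31LG11G15330) was 140, 158 and 143 CPM in the 3 libraries of 1 d, 272, 313 and 291 CPM after 7 d and 255, 259 and 290 CPM after 14 d. The dark libraries were at 171, 155 and 158 CPM. The 7 d and 14 d libraries all lay above those of 1 d and of the dark group, which overlapped each other. The level rose 1.99-fold from 1 d to 7 d (log2 fold change 0.99 ± 0.1, SE, adjusted p = 4.43e-06, from edgeR's quasi-likelihood F-test, adjusted by Benjamini-Hochberg over the 15301 tested models). It was 1.66-fold lower in the dark group than after 14 d of light (log2 fold change -0.73 ± 0.11, adjusted p = 0.000726) and 1.81-fold lower than after 7 d (-0.86 ± 0.11, adjusted p = 0.00018). Between the dark group and 1 d the log2 difference of 0.14 ± 0.11 did not pass the test (adjusted p = 0.255), and it was -0.06 when libraries were scaled by their totals alone. NRT2.7 is short and abundant, with 0.342 to 0.385 reads per base of gene length after 1 d and 0.282 to 0.454 after 7 d. No model of 300 bp or longer exceeded 0.996 in the table. When trends with gene length and with read density were taken out of every library, the change from 1 d to 7 d was 0.5 on the log2 scale (adjusted p = 0.00914), and that from 1 d to 14 d was no longer called (0.17, adjusted p = 0.342). In that fit the dark group was below 1 d (-0.56, adjusted p = 0.00522), and the difference between dark and 14 d of light was -0.73 (adjusted p = 0.00606).

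NRT1.1, a plasma membrane nitrate transporter and nitrate sensor in Arabidopsis, was nearly undetected (model Aa31LG1G2630, 5042 bp). It had 1 count in replicate 3 of 7 d, 1 count in replicate 3 of 14 d and 0 counts in each of the other 10 libraries. A count of 0 over the 3 libraries of 1 d allows a level of up to 0.25 CPM, and that over the 3 dark libraries allows up to 0.665 CPM, limits that cover counting error only. No difference between conditions was detectable at this depth.

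Both nitrate reductase genes were lowest in the dark group. NIA1 (model Aa31LG4G7870) was at 64.6, 62.0 and 59.0 CPM after 1 d, 52.7, 71.0 and 29.9 after 7 d and 43.8, 81.6 and 58.5 after 14 d. Dark seeds gave 24.3, 26.9 and 18.9 CPM. The 3 dark libraries lay below the other 9, of which the lowest was replicate 3 of 7 d, while the 3 light groups overlapped. NIA1 was 2.78-fold lower in the dark than after 14 d of light (log2 fold change -1.48 ± 0.3, adjusted p = 0.00609), 2.27-fold lower than after 7 d (-1.18 ± 0.3, adjusted p = 0.0153) and 2.68-fold lower than after 1 d (-1.42 ± 0.28, adjusted p = 0.00057). The call against 7 d was lost without replicate 2 of 7 d (-0.88, adjusted p = 0.0707), without dark replicate 1 (-1.21, adjusted p = 0.0502) and without dark replicate 3 (-1.01, adjusted p = 0.0683). Without the 4 libraries in which long genes were low, the log2 fold change of NIA1 in the dark against 14 d was -1.92 (adjusted p = 1.12e-06). There 14 d was replicate 2 alone, its library of highest NIA1.

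NIA2, which carries most nitrate reductase activity in Arabidopsis leaves, was likewise lowest in the dark, and its level exceeded that of NIA1 in every library (model Aa31LG6G9110). Its values were 104, 105 and 110 CPM after 1 d, 91.1, 108 and 59.2 after 7 d and 90.0, 139 and 111 after 14 d. Its dark values were 41.3, 34.2 and 45.5 CPM. Again all dark libraries were below the other 9 libraries and the light groups overlapped. NIA2 was 2.84-fold lower in the dark than after 14 d of light (log2 fold change -1.51 ± 0.22, adjusted p = 0.000646) and 2.14-fold lower than after 7 d (-1.1 ± 0.21, adjusted p = 0.00404). Within the light series neither reductase passed the test, with log2 differences from 1 d to 7 d of -0.24 ± 0.24 for NIA1 (adjusted p = 0.397) and -0.29 ± 0.19 for NIA2 (adjusted p = 0.198). The 7 d value of NIA2 passed it, at -0.51 (adjusted p = 0.041), when replicate 2 of 7 d was left out. Without the 4 libraries in which long genes were low, both were called higher after 14 d than after 1 d (NIA1 0.37, adjusted p = 0.0225; NIA2 0.36, adjusted p = 0.0048), where the full set gave 0.05 and 0.12. These calls set 1 library of 14 d, replicate 2, against 1 d, and it was the highest of its group for both genes.

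NIR1, the nitrite reductase that yields ammonium, was highest after 1 d and did not pass the test between the dark group and either later light group (model Aa31LG8G13280). Its level was 141, 148 and 143 CPM after 1 d, 104, 90.4 and 118 after 7 d and 128, 111 and 112 after 14 d. It stood at 137, 110 and 126 CPM in the dark group. All 3 libraries of 1 d lay above the other 9, and the 7 d, 14 d and dark groups overlapped. NIR1 fell by 0.47 ± 0.12 on the log2 scale from 1 d to 7 d (adjusted p = 0.0039), a level 1.38-fold lower. In the dark it differed from 14 d of light by a log2 fold change of 0.1 ± 0.12 (adjusted p = 0.661) and from 7 d by 0.26 ± 0.12 (adjusted p = 0.157). Without the 4 libraries in which long genes were low, the difference of 0.43 from 7 d passed the test (adjusted p = 0.00332). The dark group differed from 1 d by -0.21 ± 0.12 on the log2 scale (adjusted p = 0.136). This passed with scaling by totals (-0.41, adjusted p = 0.00598), with only the 6 libraries compared (-0.22, adjusted p = 0.0401) and with length and density trends removed (-0.49, adjusted p = 0.00044).

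Ratios between members within a library do not depend on the scaling between libraries. The ratio of NIA1 plus NIA2 to NIR1, in counts per kilobase, was 1.06, 1.0 and 1.05 after 1 d, 1.22, 1.75 and 0.668 after 7 d and 0.929, 1.77 and 1.34 after 14 d. Dark libraries had 0.423, 0.49 and 0.454. These 3 libraries lay below all 9 light libraries. The log2 ratio averaged 0.05 ± 0.04 (SD, n = 3) after 1 d, 0.17 ± 0.7 after 7 d, 0.38 ± 0.47 after 14 d and -1.14 ± 0.11 in the dark group. It differed among the 4 groups (exact permutation test of F over 369600 assignments, p = 0.0151, adjusted p = 0.0227 over 3 ratios). The call was lost without any single dark library, with an adjusted p over 3 ratios of 0.0686, 0.0534 and 0.0605 without dark replicate 1, 2 or 3. It was also lost when libraries were permuted only within the same replicate number (exact permutation p = 0.0399, adjusted p = 0.0599 over 3 ratios). The ratio of NIA1 to NIA2 had a log2 mean of -0.86 ± 0.11 after 1 d, -0.87 ± 0.19 after 7 d, -0.99 ± 0.13 after 14 d and -0.87 ± 0.46 in the dark group. The exact permutation test did not detect a difference (p = 0.905, adjusted p = 0.905). The dark libraries of that ratio spread widely, from -1.35 in replicate 3 to -0.42 in replicate 2.

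**Figure D2:**
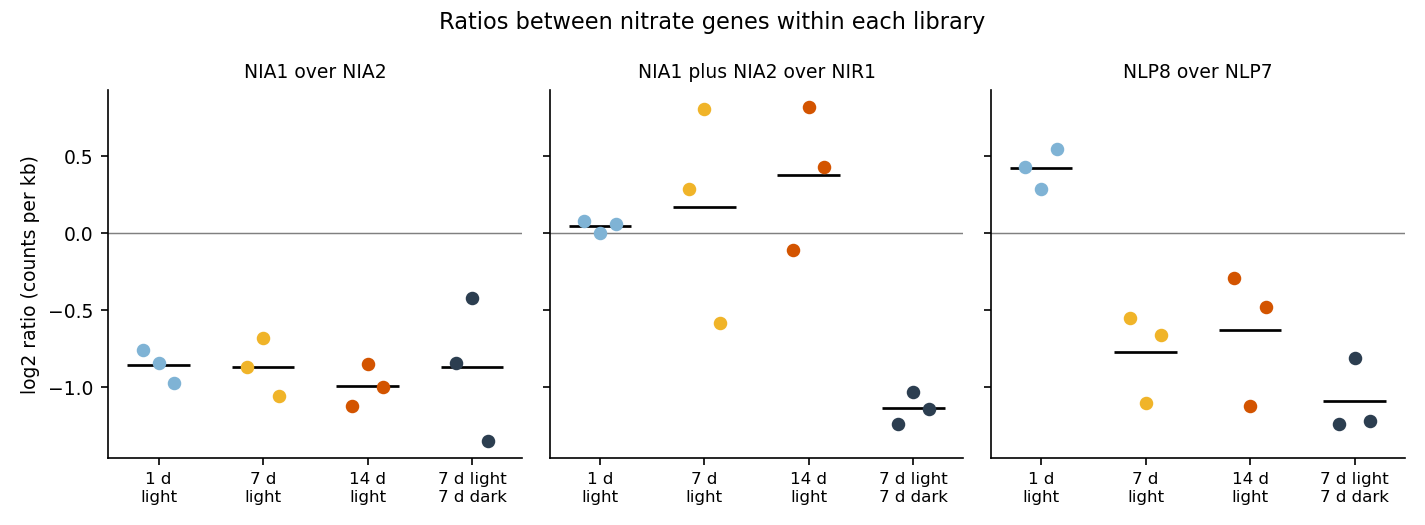
Log2 ratio of counts per kilobase within each of the 12 libraries for NIA1 over NIA2, NIA1 plus NIA2 over NIR1, and NLP8 over NLP7; points are libraries and lines are group means of 3 libraries. The NIA1 plus NIA2 over NIR1 ratio was -1.24 to -1.03 in the dark libraries, and the NLP8 over NLP7 ratio was 0.29 to 0.55 after 1 d and -0.29 or lower in the other 9 libraries.

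Among the NLP regulators, NLP7 was higher and counts of NLP6 were lower after the first day. NLP7, a nitrate sensor and activator of nitrate-response genes in Arabidopsis (model Aa31LG6G7230), was at 40.7, 41.8 and 41.2 CPM after 1 d, 90.0, 93.5 and 52.8 after 7 d and 35.5, 111 and 56.2 after 14 d. Dark seeds gave 87.2, 63.6 and 128 CPM. The 7 d and dark libraries all lay above those of 1 d, whereas the 14 d libraries spread on both sides of them. NLP7 rose 1.94-fold from 1 d to 7 d (log2 fold change 0.95 ± 0.32, adjusted p = 0.0209) and was 2.28-fold higher in the dark group than after 1 d (1.19 ± 0.33, adjusted p = 0.00553). The 7 d call was lost, with log2 fold changes of 0.79 to 0.92 and adjusted p of 0.057 to 0.0839, without any single library of 1 d and without replicate 1 or 2 of 7 d. It was kept without the 4 libraries in which long genes were low (1.12, adjusted p = 2.52e-08) and with the length trend removed (0.98, adjusted p = 0.00377). NLP7 was lowest, outside 1 d, in those 4 libraries, at 35.5, 56.2, 52.8 and 63.6 CPM. The 14 d value of 0.81 ± 0.33 against 1 d (adjusted p = 0.0472) rested on replicate 2 of 14 d, without which it was 0.18 (adjusted p = 0.623). It was also lost without any single library of 1 d, without replicate 1 or 2 of 7 d and without dark replicate 1 (0.76 to 0.79, adjusted p of 0.0592 to 0.108), in DESeq2 (0.72, adjusted p = 0.0823) and with scaling by totals (0.66, adjusted p = 0.115). Between the dark group and 14 d of light the log2 difference was 0.38 ± 0.34 (adjusted p = 0.532), and 1.0 without replicate 2 of 14 d (adjusted p = 0.0414).

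NLP8, the NLP that acts in nitrate-promoted germination in Arabidopsis (model Aa31LG1G25240), passed the test in none of the 6 comparisons. Its level was 60.6, 56.3 and 66.6 CPM after 1 d, 67.5, 48.1 and 36.9 after 7 d and 32.0, 56.2 and 44.2 after 14 d. Its dark values were 40.6, 39.9 and 60.5 CPM. The groups overlapped except for 14 d, whose highest library was just below the lowest of 1 d. Log2 differences from 1 d were -0.24 ± 0.21 after 7 d (adjusted p = 0.347), -0.4 ± 0.23 after 14 d (adjusted p = 0.136) and -0.36 ± 0.22 in the dark group (adjusted p = 0.167). Leaving out a single library brought a call in 3 cases: 7 d without its replicate 1 (-0.55, adjusted p = 0.0468), 14 d without its replicate 2 (-0.67, adjusted p = 0.0334) and dark without its replicate 3 (-0.61, adjusted p = 0.045), all against 1 d. The dark difference from 1 d was also called with scaling by totals (-0.56, adjusted p = 0.0489) and with only the 6 libraries compared (-0.37, adjusted p = 0.0337). Its level was 32.0 CPM in the library of lowest length slope and 66.6 CPM in that of highest slope, and the part of the slope in these values was not tested.

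The ratio of NLP8 to NLP7 in counts per kilobase, for models of similar length, was 1.35, 1.22 and 1.47 after 1 d. It was 0.681, 0.467 and 0.635 after 7 d and 0.818, 0.461 and 0.715 after 14 d. It stood at 0.422, 0.571 and 0.429 in the dark group. NLP8 thus exceeded NLP7 per length in each library of 1 d and in none of the other 9. The log2 ratio averaged 0.43 ± 0.13 (SD, n = 3) after 1 d, -0.77 ± 0.29 after 7 d, -0.63 ± 0.43 after 14 d and -1.09 ± 0.24 in the dark group. It differed among groups (exact permutation test of F, p = 0.005, adjusted p = 0.015 over 3 ratios). That call was lost when libraries were permuted only within the same replicate number (exact permutation p = 0.0208, adjusted p = 0.0599 over 3 ratios).

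**Figure D3:**
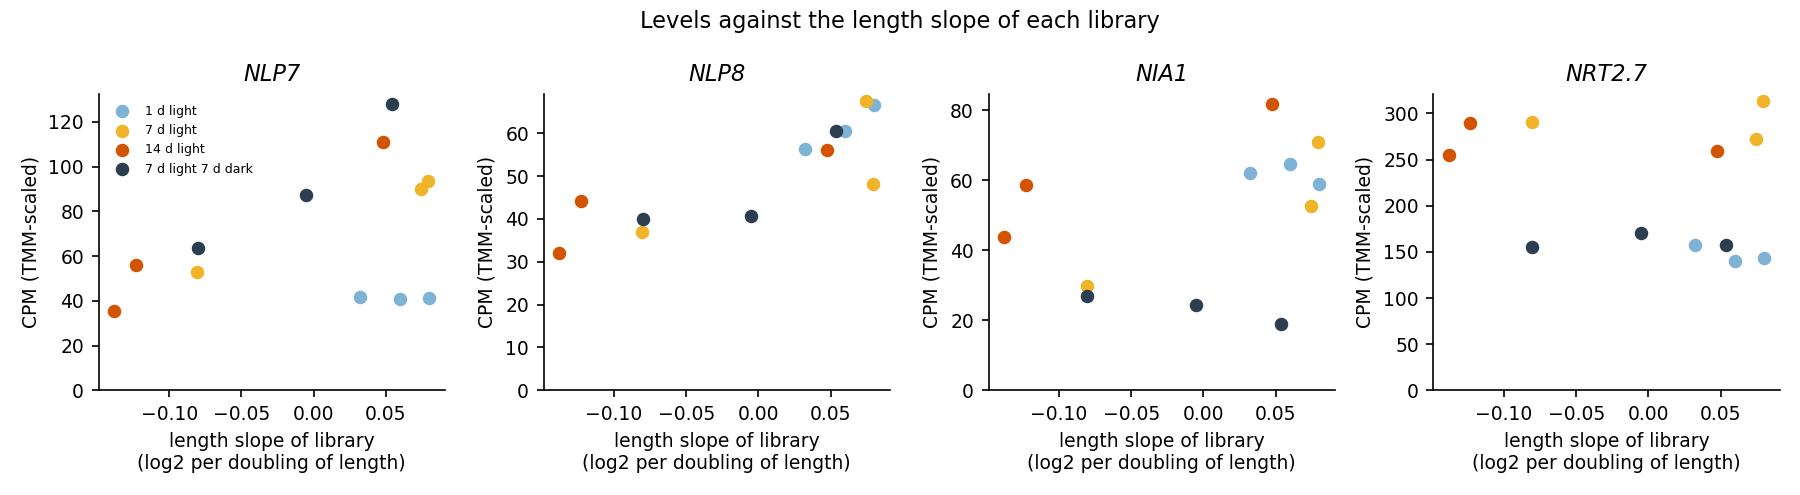
Level of NLP7, NLP8, NIA1 and NRT2.7 in TMM-scaled CPM against the length slope of each of the 12 libraries, the log2 change in count per doubling of gene length; points are libraries coloured by group. NLP8 was at 32.0 CPM in the library of lowest slope and 66.6 CPM in that of highest slope, and NLP7 stood at 40.7 to 41.8 CPM in all 3 libraries of 1 d.

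NLP6, the closest relative of NLP7 in Arabidopsis, was detected mainly after 1 d (model Aa31LG2G1520). It had 7, 9 and 10 counts in the libraries of 1 d, 0, 1 and 1 after 7 d, and 0 in each library of 14 d. The dark libraries had 0, 1 and 0 counts. Group levels were compared as summed counts over summed TMM-scaled library sizes. The 7 d level was 7.09-fold lower than that of 1 d (exact 95% counting interval 1.78 to 61.7) and the dark level 9.76-fold lower (1.6 to 400). After 14 d, with no count, the exact 95% counting interval began at 2.52-fold lower. Against a floor of 3 counts over the group, with the 26 counts of 1 d taken as exact, the 14 d level was at least 3.33-fold lower. NLP6 was left out of the test across genes for its low counts, and these intervals cover counting error only.

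The count of calls among the members is read against the whole table. From 1 d to 7 d of light, 3 of the 6 tested members passed the test (NRT2.7 and NLP7 higher, NIR1 lower), where 60.4% of all tested genes did, so this count is not a result about these genes. Their median log2 fold change was -0.24, against 0.02 over all tested genes. From 7 d to 14 d none of the 6 did, where 0.307% of all genes did. None had an unadjusted p under 0.05 in edgeR, where 1814 of all 15301 tested models did, or a call in DESeq2. The nearest was NIA2, at 0.41 ± 0.19 on the log2 scale (adjusted p = 0.425). In the dark group against 14 d of light, 3 of 6 passed (NIA1, NIA2 and NRT2.7), where 13.1% of all genes did. All 3 were lower, where 7.02% of all genes were called lower. The median of the members was -0.34 and that of all genes -0.03.

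The other 3 comparisons share libraries with these and are given side by side. Against 7 d of light, the dark group had the calls on NIA1, NIA2 and NRT2.7, all lower, where 18.4% of all genes were called and 9.99% were called lower. From 1 d to 14 d the calls were NRT2.7 (0.87 ± 0.1, adjusted p = 1.45e-05) and NLP7 higher and NIR1 lower (-0.31 ± 0.12, adjusted p = 0.0374), where 63.4% of all genes were called. The NIR1 call at 14 d was lost without any single library of 1 d and without replicate 2 or 3 of 14 d, with adjusted p of 0.0544 to 0.0892. In the dark group against 1 d the calls were NLP7 higher and NIA1 and NIA2 lower, where 68.7% of all genes were called.

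**Figure D4:**
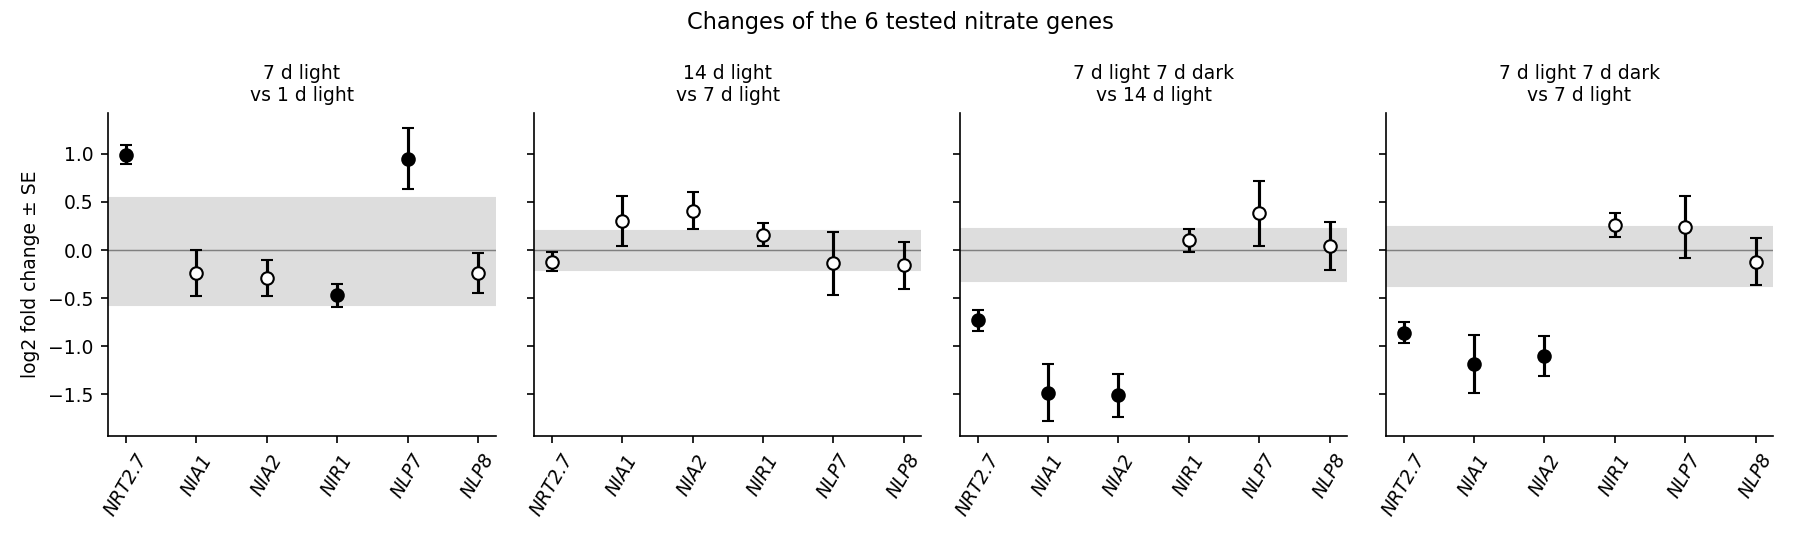
Log2 fold change with SE of the 6 tested nitrate genes in 4 comparisons, from edgeR on all 12 libraries; filled points passed an adjusted p of 0.05, open points did not, and the grey band spans the interquartile range of all tested genes. NIA1 at -1.48, NIA2 at -1.51 and NRT2.7 at -0.73 lay below the band in the dark group against 14 d of light, where NIR1, NLP7 and NLP8 were open points.

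The other transport genes of the pathway were followed by a list of 21 Arabidopsis genes. Of these, 17 were paired with 22 gene models, and 10 models were tested. From 1 d to 7 d, 6 of the 10 rose and 1 fell, where 60.4% of all tested genes were called, and the median log2 fold change was 0.7 against 0.02 over all tested genes. NRT3.1 (Aa31sc646G10), the partner protein that NRT2 transporters need at the plasma membrane, was at 4.62 ± 1.9 CPM after 1 d and rose to 23.4 ± 2.36 CPM by 7 d (2.32 ± 0.22 on the log2 scale, adjusted p = 2.28e-06), and its mean was 34.4 CPM after 14 d and 48.9 CPM in the dark group. CLCa, a vacuolar nitrate and proton exchanger, rose by a log2 fold change of 1.06 ± 0.16 (adjusted p = 8.07e-05), while NPF1.1 rose by 0.76 ± 0.14 (adjusted p = 0.000465). NRT2.5 (Aa31LG1G1840), a high-affinity transporter, rose by 1.35 ± 0.36 (adjusted p = 0.00575). NRT1.2, a low-affinity transporter that also carries abscisic acid, went from 10.2 to 1.74 CPM (-2.34 ± 0.44, adjusted p = 0.000476), a call that was lost when length and density trends were removed (-0.71, adjusted p = 0.194). Of the NRT2 family besides NRT2.7 and NRT2.5, NRT2.4 had no count and the 3 models of NRT2.1 had 0 to 19 counts per group. The more abundant of the 2 models of NRT2.6 had 31 counts after 1 d (2.61 CPM) and 6 after 7 d (0.786 CPM). It had none in the later groups, where a count of 0 allows up to 0.65 CPM (14 d) and 0.665 CPM (dark).

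In the dark group against 14 d of light, 1 of these 10 transport models was higher and 3 were lower, where 13.1% of all genes were called and 7.02% were called lower. The median of the list was 0.48 and that of all genes -0.03. Against these 4 calls, 2 were made without replicate 3 of 14 d or without dark replicate 1. In those fits 1259 of 15673 and 1216 of 15674 tested models were called, against 1999 of 15301 in the full set. NRT1.7, a phloem loading transporter, fell from 118 to 85.3 CPM (-0.47 ± 0.1, adjusted p = 0.00996). NPF1.1 fell from 47.0 to 29.0 CPM (-0.68 ± 0.16, adjusted p = 0.0122), a call lost without dark replicate 3 (adjusted p = 0.0722). NRT1.8, which unloads nitrate from the xylem in Arabidopsis, was the model that rose, from 13.1 to 27.1 CPM (0.98 ± 0.24, adjusted p = 0.0177). That call was lost without replicate 3 of 14 d and without dark replicate 1 (adjusted p of up to 0.0729). NRT2.5 went from 14.9 ± 6.12 to 3.11 ± 1.72 CPM (-1.97 ± 0.48, adjusted p = 0.0158), a call that was lost without replicate 3 of 14 d and without replicate 1 or 2 of the dark group, with an adjusted p of up to 0.0651. Without the 4 libraries in which long genes were low, which leaves 1 library of 14 d, NRT2.5 was at -1.03.

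Downstream of NIR1, the ammonium assimilation list held 15 models, of which 12 were tested. From 1 d to 7 d, 5 rose and 4 fell, where 60.4% of all genes were called, and the median was 0.24 against 0.02 over all genes. The cytosolic glutamine synthetase genes split: GLN1;5 rose from 38.8 to 105 CPM (1.43 ± 0.1, adjusted p = 3.2e-07). The GLN1;1 model Aa31LG2G2910 fell from 106 to 44.2 CPM (-1.27 ± 0.14, adjusted p = 8.16e-06). A second GLN1;1 model, Aa31LG9G17480, is paired with the same code and fell from 178 to 90.8 CPM (-0.97 ± 0.1, adjusted p = 4.76e-06). ASN3, an asparagine synthetase, changed by -1.44 ± 0.17 (adjusted p = 1.29e-05). Among the same 12, 1 was higher and 2 were lower in the dark group against 14 d, where 13.1% of all genes were called, with a median of 0.02 against -0.03 over all genes. The GLN1;1 model Aa31LG2G2910 fell again, from 52.5 to 18.1 CPM (-1.48 ± 0.19, adjusted p = 0.00028), while GLN1;3 rose from 59.7 to 93.1 CPM (0.67 ± 0.13, adjusted p = 0.00493). ASN3 was also called lower in the dark (-0.85 ± 0.26, adjusted p = 0.0476), a call that 9 of the 12 fits with a library left out did not make (adjusted p of up to 0.481). The sources used here do not give how reads were divided between copies such as those of GLN1;1.

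All 11 models of the list of molybdenum cofactor, sirohaem and ferredoxin genes, which equip nitrate and nitrite reductase, were tested. From 1 d to 7 d, 4 rose and 3 fell, where 60.4% of all genes were called, and the median was 0.07 against 0.02 over all genes. These 7 calls became 4 without replicate 3 of 1 d, where 7970 of 15291 tested models were called, against 9243 of 15301 in the full set. CNX7, a molybdenum cofactor synthesis gene, rose by 1.29 ± 0.28 (adjusted p = 0.0013), as did CNX2, of the same pathway, by 0.61 ± 0.16 (adjusted p = 0.00556). FD3, a ferredoxin of non-green plastids, is paired with a pair of models. Aa31LG5G8360 fell from 69.4 to 35.3 CPM (-0.99 ± 0.14, adjusted p = 5.26e-05), while the more abundant Aa31LG1G17300 was at 98.3 CPM after 1 d and 104 CPM after 7 d (0.07 ± 0.13, adjusted p = 0.645). RFNR1, a root-type ferredoxin reductase, fell by 0.51 ± 0.16 on the log2 scale (adjusted p = 0.0134), a call lost without replicate 2 of 7 d (adjusted p = 0.0592). None of the 11 was called in edgeR or DESeq2 in the dark group against 14 d, where 13.1% of all genes were called in edgeR. Of the 11, 2 had an unadjusted p under 0.05 there, where 4087 of all 15301 tested models did. With a library left out, 0 to 1 of the 11 was called in edgeR, where 1189 to 2241 of all tested models were. The median of the list was -0.24 against -0.03 over all genes.

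The list of other NLP and nitrate signalling genes held 20 models, of which 16 were tested. From 1 d to 7 d, 8 rose and 3 fell, where 60.4% of all genes were called, and the median was 0.14 against 0.02 over all genes. These 11 calls became 7 without replicate 2 or 3 of 1 d or replicate 1 or 2 of 7 d. In those fits 7970 to 8470 of all tested models were called, against 9243 in the full set. NLP5 (Aa31LG4G6430) was at 45.7 ± 5.23 CPM after 1 d, 93.9 ± 8.65 after 7 d, 112 ± 5.41 after 14 d and 136 ± 5.5 in the dark group. It rose by 1.04 ± 0.11 on the log2 scale in the first week (adjusted p = 5.36e-06). The NLP2 model Aa31LG8G14550 rose from 41.3 to 103 CPM in that week (1.34 ± 0.27, adjusted p = 0.000913). A second NLP2 model, Aa31LG2G14810, had 17 counts after 1 d, 2 after 7 d, 4 after 14 d and 3 in the dark group. Scaled for depth, these were 1.39 ± 0.388, 0.335 ± 0.319, 0.546 ± 0.947 and 0.636 ± 0.68 CPM. NLP4 was at 34.0, 32.7, 36.3 and 44.5 CPM in the 4 groups with no call in the first week. NLP3 had 9 counts after 1 d (0.761 CPM), when libraries were deepest, and 0, 0 and 1 later (0.225 CPM in the dark group). A count of 0 allows up to 0.458 CPM after 7 d and 0.65 CPM after 14 d. Differences at such low counts were not tested. CPK32 (Aa31LG10G12360), a calcium-dependent kinase that phosphorylates NLP7 in Arabidopsis, rose by 1.28 ± 0.18 (adjusted p = 5.43e-05). Its second model, Aa31LG1G23880, had 16 counts after 1 d, 3 after 7 d, 1 after 14 d and 1 in the dark group (1.32, 0.482, 0.137 and 0.185 CPM). CBL1, a calcium sensor, fell by 0.78 ± 0.15 on the log2 scale (adjusted p = 0.000649). In the dark group against 14 d, none of the 16 was called in edgeR, where 13.1% of all genes were. In DESeq2 1 was called, where 1680 of 20004 models were. An unadjusted p under 0.05 in edgeR was found for 6 of the 16 and for 4087 of all 15301 tested models. With a library left out, 0 to 3 of the 16 were called in edgeR, where 1189 to 2241 of all tested models were.

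Of 10 models of regulators that nitrate induces in Arabidopsis, 4 were tested. From 1 d to 7 d, 1 rose and 1 fell, where 60.4% of all genes were called, and the median was -0.05 against 0.02 over all genes. LBD39, a repressor of nitrogen-responsive genes, fell from 40.4 to 11.3 CPM between 1 d and 7 d (-1.85 ± 0.2, adjusted p = 5.36e-06), and BT1, a BTB scaffold protein, rose from 9.62 to 27.7 CPM (1.54 ± 0.17, adjusted p = 8.26e-06). In the dark group against 14 d, 13.1% of all genes were called, and the median of the list was 0.2 against -0.03 over all genes. There NIGT1.2, a repressor of the GARP type, was called higher (0.48 ± 0.14, adjusted p = 0.0402) and BT1 lower (-0.63 ± 0.19, adjusted p = 0.0443). These calls were lost in 5 and 10 of the 12 fits with a library left out, with adjusted p of up to 0.147 and 0.179. From 7 d to 14 d none of the models of these 5 lists was called in edgeR or DESeq2. An unadjusted p under 0.05 was found for 3 transport models, 2 of ammonium assimilation, 0 of cofactors, 3 of signalling and 1 of the nitrate-induced regulators. Over the whole table, 1814 of the 15301 tested models had one. CYP707A2, the NLP8 target of Arabidopsis seeds, was at 104 ± 3.04, 54.2 ± 7.52, 107 ± 11.0 and 26.8 ± 8.27 CPM after 1 d, 7 d, 14 d and dark. It was called lower from 1 d to 7 d (-0.92 ± 0.15, adjusted p = 0.000157). It was also 1 of the 47 models called from 7 d to 14 d, where it rose (0.96 ± 0.16, adjusted p = 0.0179). That second-week call was lost without replicate 1 or 3 of 14 d and without replicate 2 of 7 d, with an adjusted p of up to 0.13. The gene was 4.02-fold lower in the dark than after 14 d (-2.01 ± 0.18, adjusted p = 1.35e-05). In that comparison NLP8 RNA differed by 0.04 ± 0.25 (adjusted p = 0.947), and whether NLP8 acts on CYP707A2 in these seeds was not tested.

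**Figure D5:**
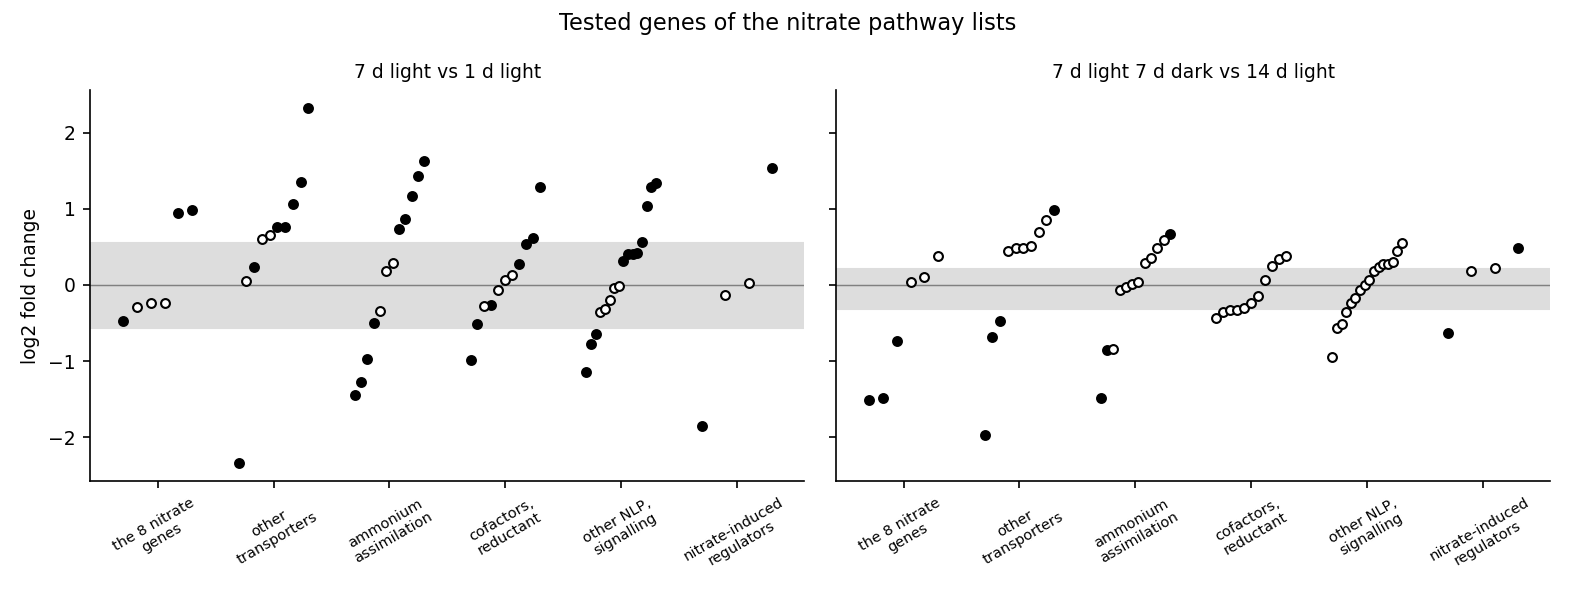
Log2 fold change of each tested gene model of the nitrate genes and the 5 other pathway lists, for 7 d against 1 d of light and for the dark group against 14 d of light, ordered by value within a list; filled points passed an adjusted p of 0.05 and the grey band spans the interquartile range of all tested genes. In the dark comparison the cofactor and signalling lists held no filled point, 13.1% of all tested genes passed, and 3 of the 6 nitrate genes were filled, at -1.51, -1.48 and -0.73.

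Likeness of pattern was described by Pearson's r of log2 CPM over the 12 libraries, which share their depth and length trends. NIA1 and NIA2 had an r of 0.943 with each other, while NIR1 had -0.156 with NIA1, -0.063 with NIA2 and -0.74 with NRT2.7. The named genes most like NIA1 were paired with YELLOW STRIPE like 2 (0.959) and dicarboxylate transporter 2.2 (0.946). Those most like NIA2 were paired with a Rossmann-fold protein (AT4G20760, 0.974) and ethylene response factor 7 (0.96). NRT2.7 was most like a copper amine oxidase (0.968) and a Rossmann-fold protein (AT4G35250, 0.966). NIR1 was most like genes with the domains of unknown function DUF1195 (0.935) and DUF794 (0.916). NLP7 was most like GH3.9 and an RNA-binding protein gene (both 0.98). NLP8 was most like a TFIIIC subunit (0.964) and a polymerase phosphatase-like gene (0.953), with an r of 0.246 between NLP7 and NLP8.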

How the data were processed

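The submitters' processing notes name HTSeq 0.11.2, Bowtie2 2.3.5.1, Trimmomatic and bcl2fastq 2.17.1 as tools and TAIR10 as a build, without the role of each; the sources used here do not give the strand setting or how duplicates were treated. Per the labels' protocols, poly(A) RNA went into a SENSE mRNA-seq library kit. The table the authors deposited holds raw counts per gene model of *Aethionema*, used as deposited, and the authors' RPKM (count per gene length and library total), used only to order levels. Columns were matched to samples by title. The test was that of edgeR 4.0.16 (R 4.3.3), with TMM scaling, a mean per group for the 4 groups of 12 libraries, filterByExpr (15301 models kept, the rest holding 0.379% of counts), the two-sided quasi-likelihood F-test, Benjamini-Hochberg adjustment over all tested models and a threshold of 0.05. CPM values use TMM-scaled sizes of the tested genes. Standard errors are |log2 fold change| divided by the root of F. Replicates were compared by chi-square before averaging, and all pairs exceeded sampling noise (1.142 to 8.239 per degree of freedom). At 7 d, the pairs with replicate 3 gave 6.211 and 5.902, against 1.311 for replicates 1 and 2. At 14 d, the pairs with replicate 2 gave 8.239 and 6.757, against 1.425 for replicates 1 and 3. Within-library ratios were tested by exact permutation in Python 3.11.15. Alternatives were DESeq2 1.42.0, other scalings, no filter, fewer libraries, a replicate block and trend removal. The members and lists were chosen with earlier results of these data known. The rule named all members, up to 4 called models per list and comparison, the NLP, NRT2 and NRT3 families, CYP707A2, and the 2 models most like each tested member. No sequence is shown, since none was among the files used here.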

Additional observations from a re-analysis of the deposited data

How the results depend on the processing

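NIA1, NIA2 and NRT2.7 kept their direction and call in the dark group against 14 d of light under each alternative run, as did NRT2.7 and NIR1 from 1 d to 7 d, and 40 of the 45 alternatives of the ratios stayed on their side of the threshold when adjusted over the 3 ratios. The call on NIA1 plus NIA2 over NIR1 was lost without any single dark library (largest difference between group means 1.31 to 1.76 on the log2 scale with a library left out), and the calls on that ratio and on NLP8 over NLP7 were lost with the replicate block. Without the 4 libraries of lowest length slope, 14 d is replicate 2 alone, assumed to vary like the other groups, so each 14 d value of that fit, ratios included, is that of 1 library. Of 756 alternative values of the members' log2 fold changes, 698 kept direction and call, 25 lost the call, 13 gained it and 20 changed sign. For 14 d against 1 d the count of 3 called members was 1 to 3 when a library was left out. Over all tested models those fits gave 8553 to 10221 calls, against 9703 in the full set. For dark against 1 d the count of 3 became 5 with scaling by totals, with only the 6 libraries compared, and with length and density trends removed, and it was 3 to 4 with a library left out. Other counts with a library left out were 2 to 3 for 7 d against 1 d, where 7970 to 10042 of all tested models were called. They were 0 for 14 d against 7 d, where 13 to 1662 were called. For dark against 14 d they were 3 to 4, where 1189 to 2241 were called, and for dark against 7 d 2 to 3, where 1609 to 3800 were. Signs changed as follows, the cause not tested. With a library left out, log2 fold changes ran from -0.75 to 0.1 for NLP7 and -0.41 to 0.11 for NLP8 (14 d against 7 d), -0.19 to 0.29 for NLP8 (dark against 14 d), -0.26 to 0.17 for NIA1 and -0.09 to 0.21 for NIA2 (14 d against 1 d), and -0.06 to 0.44 for NLP7 and -0.35 to 0.16 for NLP8 (dark against 7 d). Without the 4 libraries, NLP7 was 0.27 for 14 d against 7 d and -0.0033 for dark against 14 d, and NLP8 was -0.11 for dark against 14 d. For 14 d against 1 d, NIA1 was -0.01 in DESeq2, -0.11 with scaling by totals and -0.01 with the replicate block, and NIA2 was -0.04 with scaling by totals. NLP8 for dark against 7 d was 0.02 with both trends removed. For dark against 1 d, NRT2.7 was -0.06 with scaling by totals and -0.56 with both trends removed. None of these was called before the change.

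Same-numbered libraries deviated together in 4 of 18 pairs (r over 0.1, range -0.468 to 0.475). With only 3 libraries per group, these correlations cannot decide whether the numbers pair the libraries. With the replicate block the counts of called members were 3, 0, 3, 2, 3 and 3 in the order 7 d against 1 d, 14 d against 7 d, dark against 14 d, 14 d against 1 d, dark against 7 d and dark against 1 d, and the ratio tests gave exact p of 0.778 (NIA1 over NIA2, largest difference between group means 0.13), 0.0399 (NIA1 plus NIA2 over NIR1, 1.52) and 0.0208 (NLP8 over NLP7, 1.52). Adjusted over the 3 ratios, the last 2 were both 0.0599, so neither passed. Over all genes, 47 calls from 7 d to 14 d became 25 with the block, 24 with the 6 libraries compared, 70 with either trend removal, 71 in DESeq2, 96 without the 4 libraries and 13 to 1662 with a library left out, the last without 14 d replicate 2. The 1999 calls of dark against 14 d became 856 with 6 libraries, 3763 without the 4 libraries and 1189 to 2241 with a library left out, and the 2818 of dark against 7 d became 5419 without the 4 libraries and 1609 to 3800 with a library left out. Scaling by totals moved the median log2 fold change of all genes to -0.109 for 7 d, -0.165 for 14 d and -0.24 for dark, all against 1 d, and to -0.101 for dark against 7 d, where the share of calls that were higher went from 45.7% to 34.6%. It went from 50.2% to 40.2% for 14 d against 1 d. The trend removal by length and density together and the fit without the 4 libraries were chosen after seeing the data. The planned ratio of NRT2.7 to NRT1.1 was not run, since NRT1.1 had at most 1 count in a library; over the 4 ratios planned, with that one set at a p of 1, the adjusted p would be 0.0303 for NIA1 plus NIA2 over NIR1 and 0.02 for NLP8 over NLP7. The depth of 14 d replicate 1, 916523 counts, limits what could be detected for NRT1.1 and NLP6.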
